A study of Homo sapiens with 6 samples.

Results

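The insulin-like growth factor (IGF) family was examined in LX-2 cells, a human cell line established from hepatic stellate cells, by taking from the gene table every gene named IGF1, IGF2, IGF1R or IGFBP1 to IGFBP7. Of these 10 genes, 9 had values among the 33900 genes of the table, and the expression of IGF1 was not analysed here. RNA was sequenced from 3 samples of wild-type LX-2 cells treated with recombinant human Sema3C (rhSema3C) at 300 ng/ml for 48 h and from 3 samples treated with PBS for the same time. Both groups grew in DMEM with fetal bovine serum and penicillin-streptomycin, so any IGF protein brought by the serum was shared by the groups and was not measured. A single cell line at a single dose and time was studied, and RNA was measured, not secreted protein. The replicates are labelled as biological, but the labels do not say that they came from separate cultures, and the p-values measure the spread between these samples.

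IGF1 and IGF2 are secreted growth factors that act through the receptor tyrosine kinase IGF1R, which passes the signal through the IRS and SHC adaptors to PI3K and AKT. Most IGF outside cells is held by the binding proteins IGFBP1 to IGFBP6, which keep it from the receptor until a protease such as PAPPA cuts them, whereas IGFBP7 binds IGF only weakly. In the liver, hepatocytes are known as the main source of IGF1 and of IGFBP1, and stellate cells and other mesenchymal cells secrete several of the other binding proteins.

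In PBS, the family was dominated by 4 binding protein transcripts. On the FPKM scale, which is scaled to transcript length and allows genes to be compared, IGFBP4 stood at 160.3, 168.3 and 162.6 in PBS replicates 1 to 3, the 99.43 percentile of all genes. IGFBP7 stood at 57.1, 58.0 and 53.6 FPKM and IGFBP6 at 51.3, 44.0 and 49.4 FPKM. IGFBP5 stood at 43.1, 41.2 and 42.5 FPKM. The ranges of these 4 genes did not overlap each other, and each lay far above the remaining members. The receptor IGF1R had 4.24 to 4.61 FPKM, the ligand IGF2 3.53 to 4.07 FPKM, and IGFBP3, the main carrier of IGF in blood, 2.05 to 2.08 FPKM. IGFBP2 and IGFBP1 were close to the limit of detection, at most 0.0828 and 0.0967 FPKM, and their ranges overlapped. The order of the members by mean FPKM was the same in rhSema3C, although IGFBP1 lay above IGFBP2 in PBS replicates 2 and 3 and in rhSema3C replicate 1. The transcript length behind FPKM was set by the authors and is not given in the sources used here. With counts per kilobase of the longest GENCODE transcript in its place, the order was unchanged in PBS, and in rhSema3C IGFBP3 moved from place 7 to place 5, above IGF1R and IGF2.

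**Figure D1:**
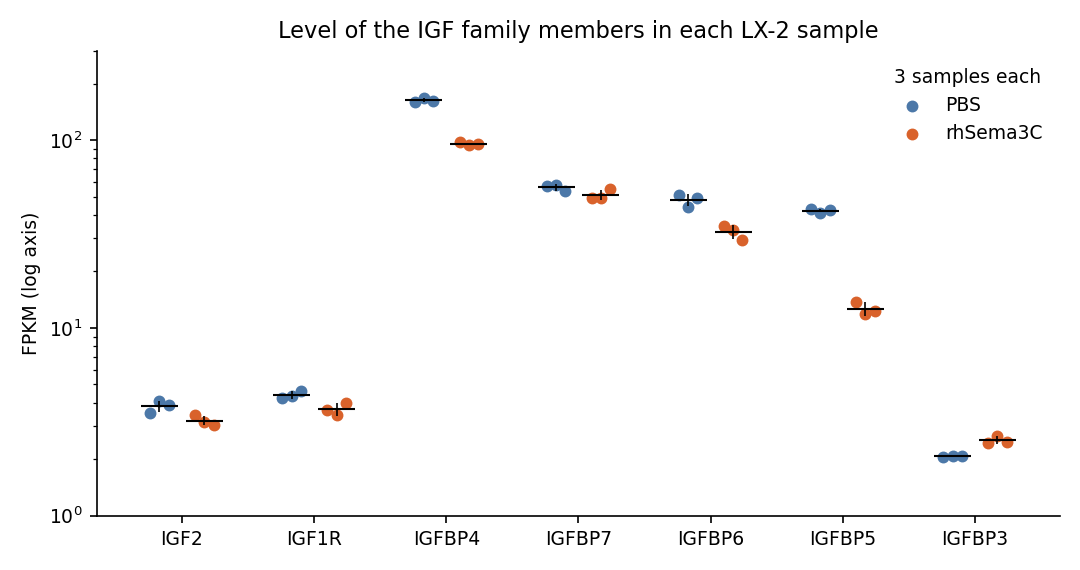
FPKM (log axis) of the 7 members that were tested, in each of the 3 PBS (blue) and 3 rhSema3C (orange) samples; horizontal lines are group means and vertical lines 1 SD. IGFBP4 is highest in both groups, IGFBP5 shows the widest gap between the groups, and IGFBP3 is the lowest of the 7 and the member with its rhSema3C samples above its PBS samples.

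The depth was between 68267808 and 89245585 counts per sample. TMM factors, which scale the libraries to each other, were 0.958 to 0.968 in PBS and 1.03 to 1.04 in rhSema3C, and mitochondrial genes took 4.75% to 5.42% and 3.73% to 3.93% of the counts. The median log2 fold change of all 14178 genes tested was 0.02, and it moved to 0.13 with library size alone as the scaling and to 0.23 with values rescaled to TPM. Of 10 stellate cell markers, 7 had a mean of at least 1 FPKM, while COL1A2, DES and LRAT were near 0, at most 0.144 FPKM in any sample. The summed FPKM of this marker list was 1496 to 1549 in PBS and 1191 to 1257 in rhSema3C. Of its 7 markers tested, 6 were lower with rhSema3C and none higher, with a median log2 fold change of -0.41. Of all genes tested, 30.6% were lower. Of the hepatocyte markers, ALB was at 0 in 5 samples, and SERPINA1, at 2.58 to 4.14 FPKM, held nearly all of the list's sum and was higher with rhSema3C (0.37, adjusted p = 0.0066, edgeR). The summed FPKM of the lists for other liver cells, in PBS and in rhSema3C, was 2.67 to 3.16 and 3.52 to 4.16 for hepatocytes, 4.78 to 5.80 and 3.18 to 3.59 for macrophages, and 1.47 to 1.88 and 1.94 to 2.35 for endothelial cells, and for cholangiocytes it was 2.37 to 3.88 and 3.20 to 3.67. CD14 held most of the macrophage sum, at 4.16 to 5.18 FPKM in PBS and 2.67 to 3.23 FPKM in rhSema3C. In the endothelial list, VWF was not tested and went from a mean of 0.101 to 0.659 FPKM. KDR and TEK of that list did not pass, and PECAM1 and CDH5 were near 0. The part that the markers, the mitochondrial share or the scaling had in the changes of the IGF family was not tested. In bulk RNA, fewer cells that express a gene and less RNA per cell cannot be told apart.

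The comparison of rhSema3C with PBS asked how the family's transcripts changed in stellate cells exposed to Sema3C. Of the 7 members with enough signal to be tested (mean FPKM of at least 0.5), 6 were lower with rhSema3C, none was higher, and IGFBP3 did not pass an adjusted p of 0.05 by edgeR's quasi-likelihood test. With library size alone 6 members were lower and 1 higher, and with limma on log2(TPM + 1) 3 were lower and 1 higher. Much of the transcriptome differed between the groups. By the same rule 62.3% of all genes tested were called, 30.6% lower and 31.7% higher, so a call is a common event in these data. Lower calls were 4339 and higher calls 4490, and with library size alone these counts were 3433 and 5641, with TPM values 2428 and 6934. The members' median log2 fold change was -0.35, against 0.02 for all genes. At a fold change above 2 with an unadjusted p below 0.05, where 5.54% of all genes were called, IGFBP5 was the 1 member called. The samples of the groups did not overlap, on the scale of CPM (counts scaled to the TMM-normalised library size), for all 7 members tested, IGFBP3 included, which was also true of 67.8% of all genes.

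IGFBP5, a binding protein that also attaches to the extracellular matrix, had the largest change of the family. It stood at 295.0, 284.2 and 290.3 CPM in the PBS replicates and at 88.6, 76.0 and 78.1 CPM in the rhSema3C replicates. Every rhSema3C sample was far below every PBS sample, and the spread inside each group was small against the gap. The group means were 289.8 ± 5.40 and 80.9 ± 6.73 CPM (SD, n = 3 each), a fall to 27.9% of the PBS level. The log2 fold change was -1.84 (edgeR, SE 0.06, adjusted p = 1.3e-09), which placed IGFBP5 at rank 34 of the 14178 genes by p. Its log2 fold change stayed between -1.91 and -1.60 over all alternatives tried.

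IGFBP4, which holds IGF away from the receptor and is cut by PAPPA, was the most abundant member and the next in size of change. It had 374.2, 396.0 and 378.7 CPM in PBS and 212.7, 205.9 and 207.8 CPM in rhSema3C. The 3 treated samples lay within a few CPM of each other and did not approach the PBS samples. Between group means of 383.0 ± 11.5 and 208.8 ± 3.52 CPM (SD, n = 3 each), the difference was a log2 fold change of -0.88 (edgeR, SE 0.04, adjusted p = 2.4e-08) that ranged from -0.89 to -0.65 over the alternatives.

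IGFBP6, known for its preference for IGF2, was lower in every rhSema3C sample too, with 73.1, 63.3 and 70.2 CPM in PBS and 46.5, 44.3 and 39.1 CPM in rhSema3C. The gap between the groups was wider than the range inside either group. The log2 fold change was -0.67 (edgeR, SE 0.07, adjusted p = 1.4e-05), from 68.9 ± 5.05 to 43.3 ± 3.78 CPM (SD, n = 3 each). IGFBP7, a secreted protein of the stroma with low affinity for IGF, changed least among the abundant binding proteins. Its PBS samples had 116.7, 119.6 and 109.4 CPM and its rhSema3C samples 94.2, 94.1 and 104.3 CPM. The groups were separate in CPM but close, and on the FPKM scale rhSema3C replicate 3 (54.8 FPKM) lay above PBS replicate 3 (53.6 FPKM), so there the groups overlapped. The log2 fold change of -0.24 (edgeR, SE 0.05, adjusted p = 0.0022) was no longer called with limma on log2(FPKM + 0.1), at -0.14 (adjusted p = 0.051), or on log2(TPM + 1), at -0.01 (adjusted p = 0.83).

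Added together, the 7 binding proteins held 314.0, 313.8 and 310.2 FPKM in the PBS samples and 197.9, 191.9 and 194.8 FPKM in the rhSema3C samples. The sum therefore fell to 0.623 of its PBS mean, from 312.7 ± 2.10 to 194.9 ± 3.01 FPKM (SD, n = 3 each), with no overlap between the groups. Its makeup shifted as well. IGFBP5 made up 13.7%, 13.1% and 13.7% of the sum in PBS and 6.99%, 6.20% and 6.29% in rhSema3C. IGFBP7 made up 18.2%, 18.5% and 17.3% in PBS and 24.9%, 25.7% and 28.1% in rhSema3C. IGFBP5 and IGFBP7 thus changed their shares in opposite directions, each without overlap, although the level of neither rose. IGFBP4 remained the largest part, at 52.4% ± 1.28 in PBS and 49.2% ± 0.0723 in rhSema3C (SD, n = 3 each), with every treated sample slightly below the PBS samples. The share of IGFBP6, 15.4% ± 1.23 and 16.7% ± 1.36 (SD, n = 3 each), had overlapping groups. The ratio of IGFBP4 to IGFBP5 transcripts rose from 3.88 ± 0.189 to 7.60 ± 0.484. These sums, shares and ratios are descriptions of the members and were given no test. FPKM summed over all genes was 288169 to 297339 in PBS and 265983 to 268533 in rhSema3C. The binding protein sum was not rescaled to these totals. With counts per kilobase in place of FPKM, the mean share of IGFBP5 was 12.8% in PBS and 5.97% in rhSema3C, and that of IGFBP7 22.2% and 31.4%.

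IGFBP3 did not follow the other binding proteins. It had 9.96, 10.2 and 10.1 CPM in PBS and 11.1, 12.1 and 11.2 CPM in rhSema3C. The rhSema3C samples were all slightly above the PBS samples, but the log2 fold change of 0.18 (edgeR, SE 0.10, adjusted p = 0.11) did not pass, with a 95% interval of -0.03 to 0.39. IGFBP3 did pass with library size alone (0.29, adjusted p = 0.019, edgeR), with limma on log2(FPKM + 1) (0.20, adjusted p = 0.015), on log2(FPKM + 0.1) (0.27, adjusted p = 0.014) and on log2(TPM + 1) (0.37, adjusted p = 0.0025). IGFBP2 and IGFBP1 were below the minimum for testing. IGFBP2 had 36, 28 and 11 counts in PBS and 30, 84 and 40 in rhSema3C, and with all 33900 genes in the fit its log2 fold change of 0.79 had an adjusted p of 0.33 (edgeR). IGFBP1, in the liver mainly a hepatocyte product, had 0, 12 and 6 counts in PBS and 14, 0 and 4 in rhSema3C. Both genes had overlapping groups, and no difference was shown. A count of 0 allows up to 0.0349 CPM of IGFBP1 in PBS replicate 1 and up to 0.0326 CPM in rhSema3C replicate 2, which covers counting error only.

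**Figure D2:**
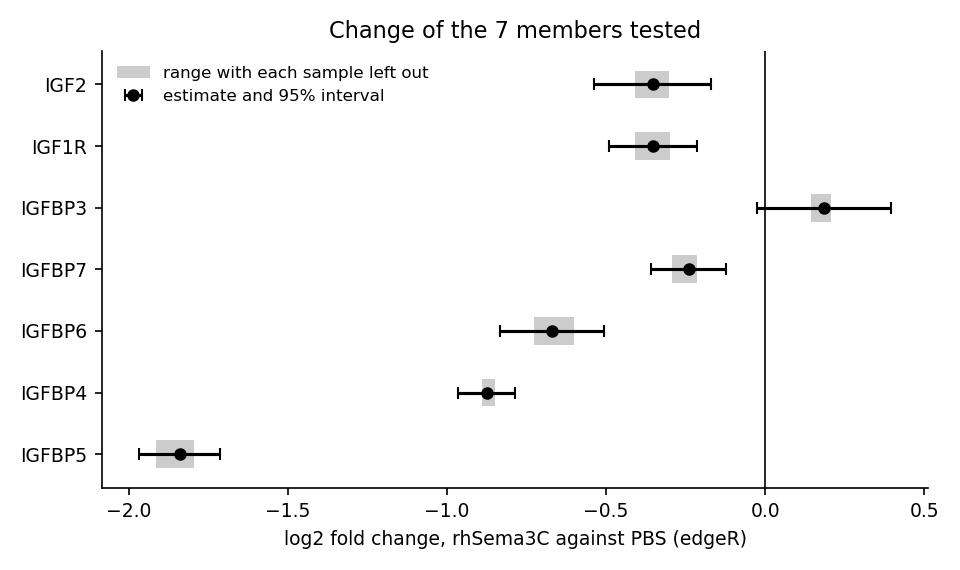
Log2 fold change of rhSema3C against PBS for the 7 members tested, with the 95% interval of the edgeR fit (bars) and the range of the estimate when each of the 6 samples was left out in turn (grey). The intervals of 6 members lie below 0, and the interval of IGFBP3 runs from -0.03 to 0.39.

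The ligand and the receptor were lower by similar amounts. IGF2 had 23.4, 27.2 and 25.7 CPM in PBS and 21.2, 19.6 and 18.8 CPM in rhSema3C. The lowest PBS sample lay only a little above the highest rhSema3C sample. The log2 fold change was -0.35 (edgeR, SE 0.08, adjusted p = 0.0033). IGF1R had 62.7, 64.5 and 68.1 CPM in PBS and 50.7, 47.3 and 54.9 CPM in rhSema3C, again without overlap. Its log2 fold change was -0.35 (edgeR, SE 0.06, adjusted p = 4.9e-04). Both calls were lost with limma on log2(TPM + 1), where IGF2 was at -0.12 (adjusted p = 0.23) and IGF1R at -0.12 (adjusted p = 0.21). The summed binding protein FPKM exceeded that of IGF2 by a factor of 88.9, 77.1 and 80.1 in the PBS samples and 57.9, 60.5 and 63.9 in the rhSema3C samples. The excess of binding protein over ligand transcript was thus smaller in each treated sample, at 82.0 ± 6.16 and 60.8 ± 3.04 (SD, n = 3 each).

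The members with values lie on 7 chromosomes, and their coordinates in the table fall on GRCh38. IGFBP5 (ENSG00000115461, chr2:216672105-216695549, minus strand) ends 7668 bases from IGFBP2 (chr2:216632828-216664436, plus strand), and IGFBP3 (chr7:45912245-45921274, minus strand) lies 18584 bases from IGFBP1 (chr7:45888360-45893660, plus strand). Each of these pairs held 1 gene near 0 and 1 expressed gene in both groups. The others are IGFBP4 (ENSG00000141753, chr17:40443450-40457725, plus strand), IGFBP6 (chr12:53097436-53102345, plus strand), IGFBP7 (chr4:57030773-57110385, minus strand), IGF2 (chr11:2129112-2141238, minus strand) and IGF1R (chr15:98648539-98964530, plus strand). The nearest tested genes around the members did not share a direction. Of 14 such neighbours, 5 were higher, 4 lower and 5 did not pass. Over all genes tested 31.7% were higher and 30.6% lower, a like split. On either side of the IGFBP2 and IGFBP5 pair, RPL37A, a ribosomal protein gene, had a log2 fold change of 0.28 and the long non-coding RNA gene DIRC3 one of 0.33, which was lost without PBS replicate 1 (0.31), PBS replicate 3 (0.31) or rhSema3C replicate 3 (0.25). Beside IGFBP6, SPRYD3 had one of -0.40 and CSAD, an enzyme of taurine synthesis, one of 0.87. IGFBP7 overlaps POLR2B on the other strand, which had 8642 to 11417 counts in PBS and 12190 to 14691 in rhSema3C. Whether the counting used strand is not given in the sources used here, so reads of the shared part cannot be told apart.

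The 100 bases before the transcription start (RefSeq, GRCh38.p14) are shown for the 3 binding proteins with the largest falls and for IGFBP3, the member that did not fall, so that members that moved together can be set beside one that did not. They are read 5′ to 3′ on the gene's strand. Capitals mark the exact letters TATAAA of a TATA box or GCGTG of a hypoxia response element core. Their positions are chr2:216695550-216695649 for IGFBP5, chr17:40443350-40443449 for IGFBP4, chr12:53097567-53097666 for IGFBP6 and chr7:45921273-45921372 for IGFBP3. The RefSeq start of IGFBP6 lies inside the gene as the table places it, so its stretch falls within those coordinates.
IGFBP5: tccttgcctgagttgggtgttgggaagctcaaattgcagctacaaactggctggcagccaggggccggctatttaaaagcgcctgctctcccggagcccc
IGFBP4: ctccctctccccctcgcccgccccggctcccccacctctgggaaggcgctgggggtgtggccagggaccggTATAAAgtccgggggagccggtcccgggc
IGFBP6: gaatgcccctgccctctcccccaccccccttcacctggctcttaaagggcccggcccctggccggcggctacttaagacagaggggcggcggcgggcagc
IGFBP3: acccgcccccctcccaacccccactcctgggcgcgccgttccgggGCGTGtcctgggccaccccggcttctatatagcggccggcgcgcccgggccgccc

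The GC content of these stretches was 59% for IGFBP5, 76% for IGFBP4, 72% for IGFBP6 and 79% for IGFBP3. RefSeq windows from 250 bases before to 50 after the start were given for 7 members, IGF1 among them, and searched on both strands. IGF2, IGFBP1 and IGFBP7 had no window and were not searched. TATAAA was found for IGFBP4, with its first base at position -29, against 11.5% of all 35116 windows. GCGTG was found for IGF1R, IGFBP2 and IGFBP3 (36.5% of all windows), and the related core ACGTG for IGF1R and IGFBP2 (21.4%). The insulin response element core TGTTTTG (4.92% of all windows) and the CEBP-ATF response element TGATGNAA (3.62%) were in no window of these 7 members. IGFBP4, IGFBP5 and IGFBP6, the members with the largest falls, therefore shared none of the 5 motifs as exact strings. Variants were not searched, so TATA-like runs such as tatttaaa in the IGFBP5 stretch and tatatag in the IGFBP3 stretch are not marked. Whether the members share a promoter element was thus not tested. A match is a run of letters and not a measured binding site.

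The proteases that cut the binding proteins, and the inhibitors of those proteases, did not move as a block. Of 8 tested genes of this list, 3 were higher, 3 lower and 2 did not pass, with a median log2 fold change of 0.14. So 75% were called, against 62.3% of all genes, which were also split about evenly (31.7% higher, 30.6% lower). PAPPA, the secreted metalloprotease that cuts IGFBP4 and IGFBP5, had the largest rise among the tested genes of the list. It had 57.2, 60.8 and 68.8 CPM in PBS and 107.7, 102.9 and 107.6 CPM in rhSema3C. Its groups were well apart, with a log2 fold change of 0.77 (edgeR, SE 0.06, adjusted p = 1.4e-06). The ratio of IGFBP4 FPKM to PAPPA FPKM was 34.3, 34.2 and 28.9 in the PBS samples and 10.4, 10.5 and 10.1 in the rhSema3C samples, so the substrate's transcript stood at a lower multiple of the protease's transcript in each treated sample. PAPPA2, a related protease that cuts IGFBP3 and IGFBP5, was below the minimum for testing, with 16, 24 and 28 counts in PBS and 192, 142 and 135 in rhSema3C. With all 33900 genes in the fit, its log2 fold change was 2.49 (edgeR, SE 0.35, adjusted p = 5.4e-04).

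The stanniocalcins STC1 and STC2 are secreted inhibitors of PAPPA. STC1 rose with rhSema3C, with group means of 278.8 ± 7.63 and 377.1 ± 12.6 CPM (SD, n = 3 each) and a log2 fold change of 0.44 (edgeR adjusted p = 5.3e-06). STC2 had 343.8, 365.0 and 378.9 CPM in PBS and 399.5, 377.7 and 374.7 CPM in rhSema3C, with overlapping groups and a 95% interval of the log2 fold change from -0.02 to 0.19. With library size alone STC2 passed (0.19, adjusted p = 0.0041, edgeR). PAPPA and its inhibitor STC1 thus rose together. Among the other proteases, the membrane metalloprotease ADAM9 rose by a log2 fold change of 0.20, while the secreted serine proteases PRSS23 (-0.52) and HTRA1 (-0.39) and the lysosomal protease CTSD (-0.34) fell, all with an adjusted p below 0.05. PRSS23 overlaps FZD4 on the other strand.

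**Figure D3:**
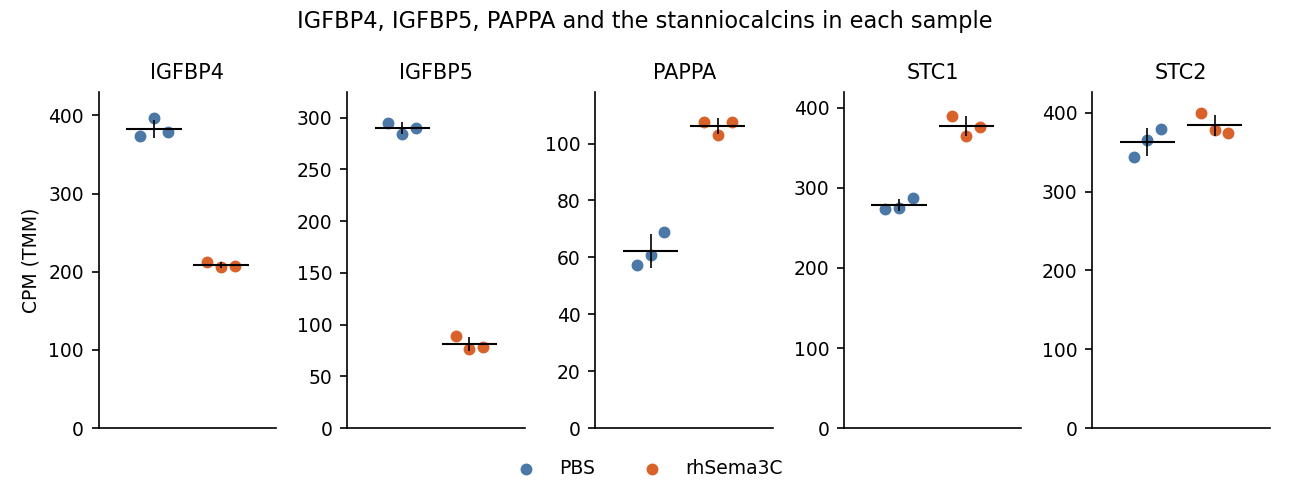
CPM (linear axes from 0, 1 panel per gene) of IGFBP4, IGFBP5, their protease PAPPA and its inhibitors STC1 and STC2 in 3 PBS (blue) and 3 rhSema3C (orange) samples; horizontal lines are means and vertical lines 1 SD. IGFBP4 and IGFBP5 are lower and PAPPA and STC1 higher in every rhSema3C sample, and the STC2 groups overlap.

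Over all the pathway lists, 53 genes were listed, 52 had values and 45 were tested. Of these, 15 were higher, 15 lower and 15 did not pass, so 66.7% were called, close to the 62.3% of all genes. The split moved with the scaling, to 23 higher and 12 lower with library size alone and to 26 higher and 8 lower with limma on log2(TPM + 1). The median log2 fold change was 0.08. Among the other receptors, INSR, the insulin receptor, which can pair with IGF1R, had 16.7, 15.6 and 18.1 CPM in PBS and 20.6, 21.0 and 21.9 CPM in rhSema3C. The treated samples were all above the PBS samples, and the log2 fold change was 0.33 (edgeR, SE 0.08, adjusted p = 0.0048), opposite in sign to that of IGF1R. IGF2R, which carries IGF2 to the lysosome, had 430.0 to 495.1 CPM in PBS and 452.6 to 515.4 CPM in rhSema3C, with overlapping groups and a 95% interval of the log2 fold change from -0.07 to 0.20. With library size alone IGF2R passed (0.17, adjusted p = 0.027, edgeR). The ratio of IGF2R to IGF1R transcripts by FPKM was 5.59 ± 0.197 in PBS and 7.49 ± 0.450 in rhSema3C (SD, n = 3 each). IGFLR1 did not pass (-0.65, adjusted p = 0.37, edgeR). Without PBS replicate 1, where it had 32 counts against 323 and 232 in the other PBS samples, its log2 fold change was -1.18 (adjusted p = 0.0023, edgeR). AD000671 overlaps IGFLR1 on the same strand. It had 554, 18 and 60 counts in PBS replicates 1 to 3 and 457 to 578 in rhSema3C. How reads were split between these genes was not tested.

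Of 7 adaptors tested below IGF1R, 4 were lower and 1 higher, where 30.6% of all genes were lower. IRS1, the docking protein of IGF1R, had 114.9, 124.7 and 119.8 CPM in PBS and 62.3, 53.7 and 60.7 CPM in rhSema3C. It fell to 49.1% of the PBS level (log2 fold change -1.03, SE 0.06, edgeR adjusted p = 1.1e-07), past a fold of 2. SHC1 (-0.81), GRB2 (-0.31) and SH2B1 (-0.26) fell as well, but with limma on log2(TPM + 1) GRB2 (-0.08, adjusted p = 0.074) and SH2B1 (-0.03, adjusted p = 0.74) were not called. IRS2, the related docking protein, had 21.3 to 22.7 CPM in PBS and 23.0 to 24.4 CPM in rhSema3C and did not pass (0.13, adjusted p = 0.13, edgeR), and it passed as higher with limma on log2(TPM + 1) (0.33, adjusted p = 0.0037). GRB10, an adaptor known to restrain IGF1R and insulin receptor signals, rose. It had 2.01, 2.40 and 3.01 CPM in PBS and 7.86, 6.69 and 7.96 CPM in rhSema3C, with no overlap. Its log2 fold change was 1.60 (edgeR, SE 0.17, adjusted p = 1.2e-05), and 0.52 with limma on log2(FPKM + 1), where the added 1 weighs on a gene of low level.

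Of 20 PI3K, AKT and FOXO signal carriers, 8 were higher, 6 lower and 6 did not pass, so 70% were called, against 62.3% of all genes. AKT2 (-0.64), RPTOR (-0.61) and AKT1 (-0.58) fell. AKT1 went from 316.9 ± 12.3 to 212.0 ± 10.3 CPM (SD, n = 3 each). RICTOR, a subunit of the mTOR complex that phosphorylates AKT, had the largest rise (0.67). RICTOR and RPTOR, which mark the different mTOR complexes, thus moved in opposite directions. RICTOR overlaps OSMR on the other strand, which had 20268 to 24984 counts in PBS and 31760 to 33304 in rhSema3C. PIK3R2, a regulatory subunit of PI3K, had 6910, 4859 and 4198 counts in PBS and 33, 33 and 4575 in rhSema3C, where replicate 3 stood apart. It did not pass (-1.95, adjusted p = 0.16, edgeR), but it passed with limma on log2(FPKM + 1) (-2.55, adjusted p = 0.027), on log2(FPKM + 0.1) (-4.29, adjusted p = 0.032) and on log2(TPM + 1) (-3.50, adjusted p = 0.031). It also passed with the replicate block (-4.74, adjusted p = 0.011, edgeR) and without rhSema3C replicate 3 (-7.58, adjusted p = 1.7e-09, edgeR). AC007192, which overlaps PIK3R2 on the same strand, was high where PIK3R2 was low, and the sum of both genes had a log2 ratio of -0.42.

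The remaining lists were divided. Of the IGF2 mRNA-binding proteins tested, IGF2BP3 was higher (0.29) and IGF2BP2 lower (-0.19), the latter not called with library size alone (-0.09) and at 0.034 with TPM values. IGF2BP3 was no longer called without rhSema3C replicate 2 (0.22, adjusted p = 0.056, edgeR). Of 5 cell surface partners of the binding proteins, 40% were called, against 62.3% of all genes. The integrin subunit ITGAV was higher (0.31), ITGA5 was lower (-0.28), and 3 did not pass. Those 3 were LRP1 (0.12), ITGB1 (-0.04) and TMEM219 (-0.09), a reported receptor of IGFBP3, and the last 2 were higher with limma on log2(TPM + 1), ITGB1 by 0.18 (adjusted p = 0.0072) and TMEM219 by 0.13 (adjusted p = 0.0496).

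**Figure D4:**
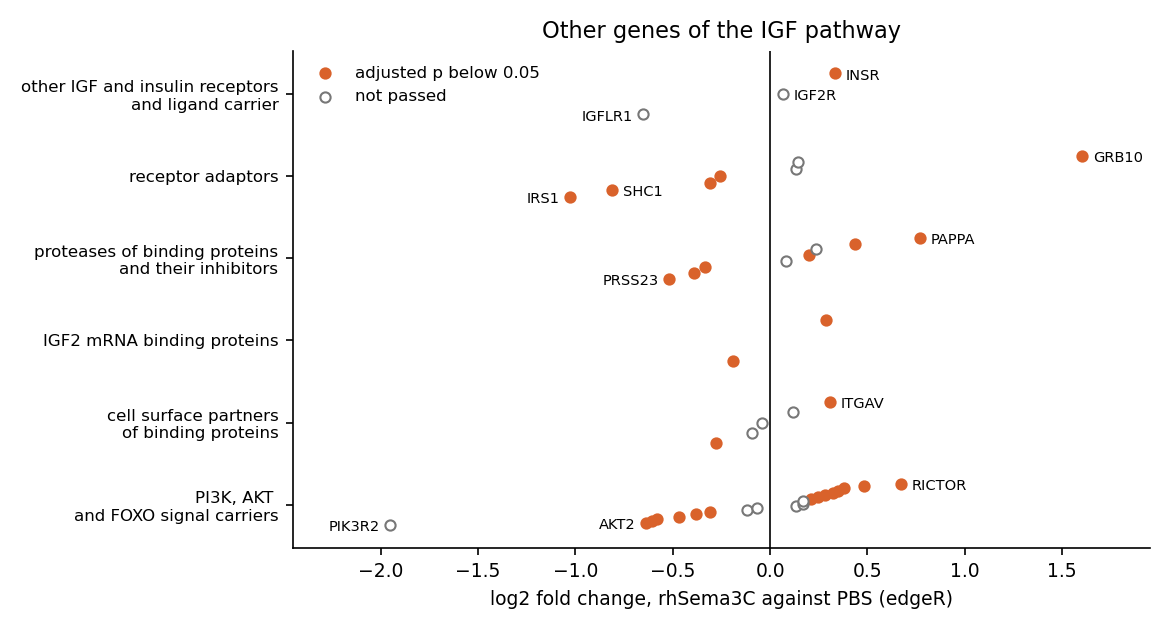
Log2 fold change of rhSema3C against PBS (edgeR) for the 45 tested genes of the 6 pathway lists, 1 row of points per list; filled points passed an adjusted p of 0.05 and open points did not. With TMM scaling 15 genes rose and 15 fell (23 and 12 with library size alone, 26 and 8 with TPM values), with GRB10 at 1.60 the largest rise and IRS1 at -1.03 the largest fall among genes that passed.

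The tested genes whose log2 CPM followed the 2 most abundant members most closely over the 6 samples were found by Pearson's r, as a description. For IGFBP4 they were MAT2A, which makes S-adenosylmethionine (r = 0.9999), CFL1, the actin-severing protein cofilin (0.9998), and FEN1, a DNA replication nuclease (0.9998), and 864 of 14177 genes had an r above 0.99. Their log2 fold changes were -0.70, -0.94 and -0.97. For IGFBP7 they were ATG4D, an autophagy protease (0.9989), AC100810 (0.9981) and SH2B1 (0.9946), and 9 genes had an r above 0.99. With 3 samples in each of 2 groups, such a correlation mostly restates the difference between the groups, and all genes share the same libraries.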

How the data were processed

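RNA libraries of 3 rhSema3C-treated and 3 PBS-treated LX-2 samples were made with a kit for mRNA. Raw counts of each gene, as whole numbers, and FPKM values were deposited by the authors, who computed the latter from transcript length and library size. Their methods name Cufflinks with cuffmerge. The aligner, strand setting and build are not given in the sources used here; 99.88% of the 32887 genes found in GENCODE overlapped their GRCh38 position. Groups came from the sample labels. Replicates of 1 group differed by more than counting noise (chi-square per degree of freedom 16.0 to 27.9).

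Genes averaging at least 0.5 FPKM over the 6 samples (14178) were kept, and their counts were scaled by TMM and compared with the quasi-likelihood test of edgeR 4.0.16 (R 4.3.3), with Benjamini-Hochberg adjustment over all genes tested. Alternatives used limma 3.58.1 on log2 FPKM or TPM, DESeq2 1.42.0, other scalings and filters, the replicate number as a block and leaving out single samples. The procedure was run on simulated data in which few genes changed, equally up and down. Most genes were called in the real data, so that run does not show how the scaling behaves here. The members, gene lists and alternatives were chosen with earlier results of these data known. The text names all members, for each pathway list the largest rise and fall among called genes and genes the members act through, the 3 closest genes by correlation for the 2 most abundant members, and the nearest tested neighbours. Promoter sequence came from RefSeq, with no entry used for IGF2, IGFBP1 and IGFBP7. For 3 samples against 3, an exact permutation test of 1 gene cannot go below a two-sided p of 0.1. Figures were drawn with matplotlib 3.10.9. Results for some single genes of the lists are not reported.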

Additional observations from a re-analysis of the deposited data

How the results depend on the processing

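IGFBP4, IGFBP5 and IGFBP6 kept their direction and their call under all 16 alternatives, and no member changed sign under any alternative that gave it a value. IGFBP1 and IGFBP2 had at most 14 and 84 counts in any sample. With genes of a mean FPKM of at least 5, 5224 genes passed an adjusted p of 0.05. At a fold above 2 with p below 0.05, 2010 genes were called without a filter, 239 at a mean FPKM of at least 5 and 249 with limma on log2(FPKM + 1), against 785. When single samples were left out, the 4 counts ranged from 8060 to 8504 genes, from 759 to 846 at the fold threshold, from 6 to 6 members and from 29 to 31 pathway genes. IGF2BP2 changed sign with TPM values (0.034). TMEM219 did so with library size alone (0.016), a mean FPKM of at least 5 (0.0094), limma on log2(FPKM + 1) (0.011), log2(FPKM + 0.1) (0.011) and TPM (0.13), and ITGB1 with the same settings (0.066, 0.060, 0.060, 0.060 and 0.18). With TPM values both passed with the turned sign (adjusted p = 0.0072 for ITGB1 and 0.0496 for TMEM219 by limma). Of genes that had not passed, IGF2R and LRP1 passed under 3 alternatives each, IRS2 under 4 and STC2 under 5, all of them other scalings, limma fits or the filter at 5 FPKM. Of genes that had passed, GRB2, HTRA1, CTSD, ITGA5 and ATG4D lost their call with TPM values, SH2B1 with library size alone and the 3 limma fits, and DIRC3 with all genes tested. Same-numbered samples did not deviate together (r = -0.08, -0.05 and -0.04), so the numbers were not taken as pairs. With the replicate block, 8341 genes, 804 at the fold threshold, 6 members and 31 pathway genes were called, and no member's call changed, while PIK3R2 passed (-4.74). The cause of these changes was not tested.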

Other observations

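Counts of PIK3R2, which encodes a PI3K regulatory subunit, varied between samples together with those of AC007192, a gene that overlaps it on the same strand. This pair was looked at after its values were seen. PIK3R2 had 6910, 4859 and 4198 counts in PBS and 33, 33 and 4575 in rhSema3C, and AC007192 had 203, 2747 and 2952 in PBS and 6969, 6225 and 1690 in rhSema3C. Where one was low the other was high, in both groups. Their counts added together were 7113, 7606 and 7150 in PBS and 7002, 6258 and 6265 in rhSema3C, or 99.8 ± 14.8 and 74.6 ± 6.37 CPM (SD, n = 3 per group), a log2 ratio of -0.42 in place of -1.95. IGFLR1 and AD000671, which overlaps it on the same strand, also moved against each other in PBS, but their counts did not stay level between the groups. IGFLR1 had 32, 323 and 232 counts in PBS and 131, 140 and 197 in rhSema3C. AD000671 had 554, 18 and 60 counts in PBS and 486, 578 and 457 in rhSema3C. Against PBS replicates 2 and 3, AD000671 was higher in rhSema3C by more counts than IGFLR1 was lower. A fold change of this pair added together was not computed. How the authors' counting split reads between overlapping genes was not tested.

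At the IGF2 locus, H19, the maternally expressed RNA beside IGF2, had 0, 119 and 97 counts in PBS and 59, 4 and 0 in rhSema3C, with overlapping groups and no test. IGF2-AS, which overlaps IGF2 on the other strand, had 46, 22 and 28 counts in PBS and 85, 60 and 71 in rhSema3C, or 0.424 ± 0.110 and 0.827 ± 0.165 CPM (SD, n = 3 per group). Its samples did not overlap between the groups, it was below the minimum for testing, and IGF2 itself moved the other way.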
